A study of Mus musculus with 12 samples.

Results

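The liver genes described here are 10 genes of fatty acid uptake and lipid droplets: Cd36, Lpl, Vldlr, Fabp4, Fabp5, Mogat1, Dgat2, Plin2, Cidec and Cidea. They were taken by name, because liver without cytochrome P450 reductase (POR) is known to accumulate fat, and with earlier results of these data known. Each was followed through every array probe set annotated with that 1 symbol. This gave 21 probe sets among 22626 tested, and 10 genes among 12393 named. The whole liver was profiled with 12 Affymetrix 430A arrays, which read each gene with sets of short probes. Each array carried the pooled RNA of 3 male mice aged 6 to 8 weeks, and each of 4 groups had 3 arrays. All mice were adapted for 14 days to a soya-free powdered diet. The groups were POR-null mice given quercetin, wild-type mice given quercetin, POR-null mice kept on the control diet and wild-type mice kept on the control diet. Quercetin, a plant flavonol, was mixed into the diet at 6.2 g per kg (7 mg per mouse), and all livers were taken 24 h later. POR passes electrons to the microsomal cytochromes P450. The labels call every mouse C57BL/6, and they name neither the construct nor the tissues in which POR is lost, so loss of POR and any difference in background cannot be told apart. Por itself is not analysed here. No lipid was measured, so the fat content of these livers is not part of the data.

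Fatty acids reach the liver cell from albumin in blood, or from lipoproteins after a lipase has cut their triglyceride. Inside the cell they are bound by carrier proteins, joined to glycerol by acyltransferases and stored as triglyceride in droplets, whose coat proteins govern how droplets grow and how lipases reach them. Cd36, Fabp4, Cidec and Mogat1 are low in lean liver and better known from fat tissue or macrophages, and the nuclear receptor PPARγ is known to induce several of them in fatty mouse liver.

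All values are the deposited log2 signals, on which a difference of 1 means a factor of 2. Array medians lay between 5.93 and 5.99, and the correlation between arrays of a group over the probe sets was 0.988 to 0.993. Where a gene had several probe sets, the one with the highest mean over the 12 arrays represents it, and the others are given beside it. Wild-type control array 1 lay apart from the other wild-type control arrays for several of these genes. For Cd36, Fabp4, Cidec and Mogat1, POR-null control array 3 was lowest of its group and POR-null control array 1 highest. The control-diet differences of the genes concerned are given with and without these arrays. The p-values are from limma, adjusted over all probe sets with a threshold of 0.05, and they measure the spread between pools of mice. Since whole liver was used, more cells of a type and more RNA per cell cannot be told apart.

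Part of the 10 genes was higher in POR-null liver, and 0 were lower past the threshold. Averaged over both diets, 6 of 10 rose, namely Cd36, Fabp4, Cidec, Fabp5, Lpl and Mogat1, where 5.08% of all genes were called higher. On the quercetin diet 5 of 10 rose (Cd36, Fabp4, Cidec, Mogat1 and Lpl), against a background of 1.86%. On the control diet 4 of 10 rose (Cd36, Fabp4, Fabp5 and Cidec), against 0.92%. Their median log2 difference, POR-null minus wild type, was 0.71 on the quercetin diet, 0.49 on the control diet and 0.68 over both. Over all genes it was -0.03, -0.02 and -0.02 in the same 3 comparisons. Among all genes 0.629% were called lower on the quercetin diet, 0.323% on the control diet and 2.86% over both. The remaining 4 genes, Plin2, Dgat2, Vldlr and Cidea, did not pass in any of the 3. Counted over probe sets, 8 of 21 rose on the quercetin diet, 6 of 21 on the control diet and 10 of 21 over both, against 1.75%, 0.822% and 4.88% of all probe sets. The same mice are counted in the average and in the comparison on each diet. The 10 genes were chosen with earlier results of these data known, so the shares of all genes describe the background and do not test these counts.

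**Figure D1:**
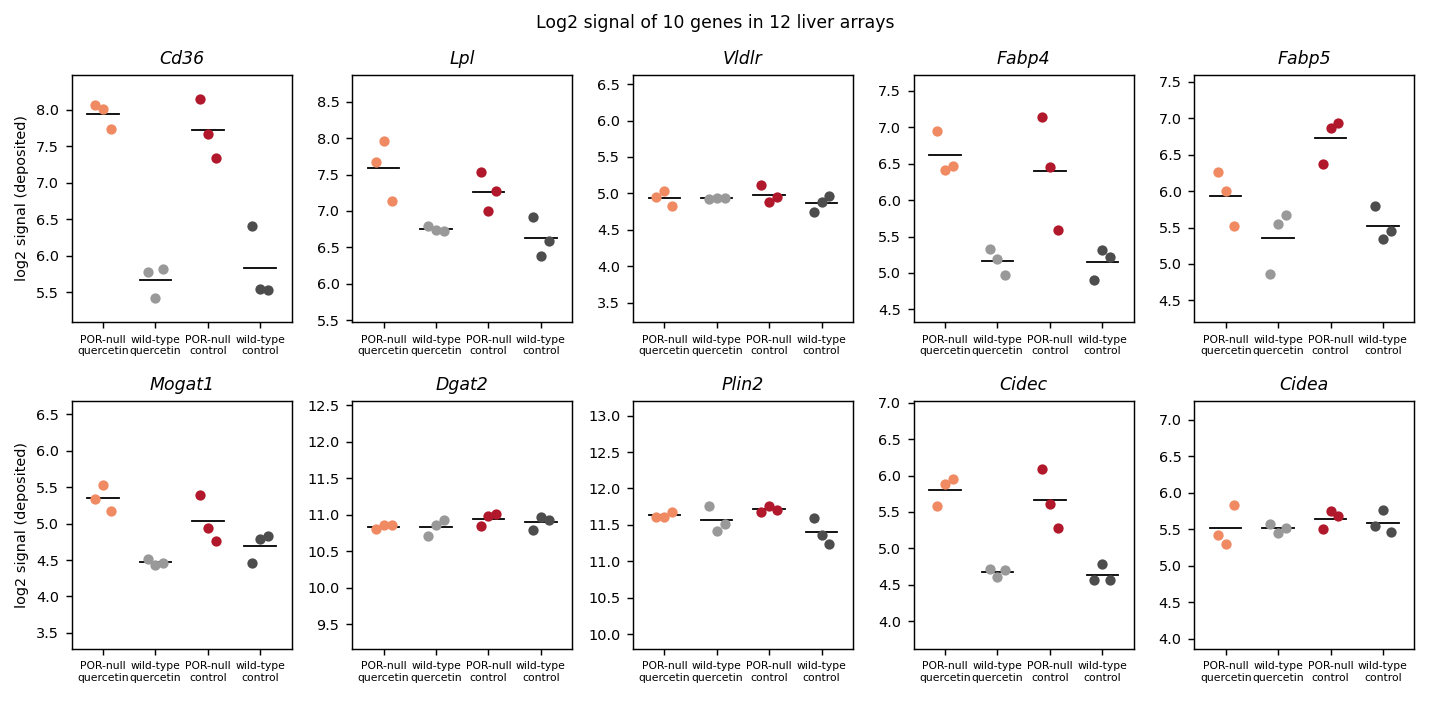
Log2 signal of the 10 genes (1 panel each, representative probe set, y axis spanning the same number of log2 units in every panel) in the 3 arrays of each group, with a line at the group mean. Cd36, Fabp4, Cidec and Lpl have all POR-null points above all wild-type points, while the group means of Vldlr, Dgat2 and Cidea lie close together.

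RefSeq promoter windows, each running from 250 bases before to 50 bases after a transcription start, were used for 5 of the 10 genes (7 windows, GRCm38.p6). Windows of Cd36, Cidec and Mogat1 are shown because these genes rose, and that of Plin2 because this coat gene did not pass. All are printed on the gene's own strand, 5′ to 3′, with any match to AGGTCA or its reverse complement in capitals. AGGTCA is the core letters bound by many nuclear receptors, PPARγ among them. Cd36 is shown from chr5:17835847-17836146, minus strand, and Cidec from chr6:113435711-113436010, minus strand, the outer of 2 starts. Mogat1 is from chr1:78510810-78511109, plus strand, and Plin2 from chr4:86670010-86670309, minus strand.
Cd36: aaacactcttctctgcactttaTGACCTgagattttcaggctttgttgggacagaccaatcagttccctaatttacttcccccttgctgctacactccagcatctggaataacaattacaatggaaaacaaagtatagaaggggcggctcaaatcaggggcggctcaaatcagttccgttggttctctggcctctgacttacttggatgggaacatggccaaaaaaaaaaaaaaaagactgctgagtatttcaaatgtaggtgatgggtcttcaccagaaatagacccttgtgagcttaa
Cidec: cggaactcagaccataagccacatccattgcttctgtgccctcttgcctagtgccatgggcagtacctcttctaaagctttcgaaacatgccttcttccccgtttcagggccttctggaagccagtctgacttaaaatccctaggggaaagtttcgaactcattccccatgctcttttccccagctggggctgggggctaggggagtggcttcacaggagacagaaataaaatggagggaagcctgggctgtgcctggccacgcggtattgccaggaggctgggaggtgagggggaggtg
Mogat1: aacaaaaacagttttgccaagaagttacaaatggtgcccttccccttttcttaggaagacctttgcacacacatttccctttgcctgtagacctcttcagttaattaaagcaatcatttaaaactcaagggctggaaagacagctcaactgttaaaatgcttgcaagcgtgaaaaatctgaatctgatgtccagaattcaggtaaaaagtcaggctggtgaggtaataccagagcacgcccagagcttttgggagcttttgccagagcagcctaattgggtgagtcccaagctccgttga
Plin2: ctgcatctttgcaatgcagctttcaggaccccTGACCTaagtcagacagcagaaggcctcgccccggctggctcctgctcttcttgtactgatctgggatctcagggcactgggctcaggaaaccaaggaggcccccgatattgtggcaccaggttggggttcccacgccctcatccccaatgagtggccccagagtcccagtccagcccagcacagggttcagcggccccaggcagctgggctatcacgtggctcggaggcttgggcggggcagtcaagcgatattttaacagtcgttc
The letters were found in 2 of the 7 windows, those of Cd36 (first base at -228) and Plin2 (first base at -218), both as TGACCT, where 16.3% of 32851 windows held a match on either strand. A direct repeat of AGGTCA with any 1 base between the copies, searched on both strands, was in 0 of the 7 and in 0.0396% of all windows, and each such repeat holds the single motif too. Among the 4 windows printed, a gene that rose (Cd36) and one that did not pass (Plin2) held the letters, and the windows of Cidec and Mogat1, which rose, did not.

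Among the genes that bring fatty acids into the cell, Cd36 moved most. Cd36 encodes a membrane receptor for long-chain fatty acids and oxidised lipoproteins. Quercetin-diet signals (probe set 1423166_at) were 8.07, 8.02 and 7.74 in POR-null liver, against 5.77, 5.42 and 5.81 in wild-type liver. Signals on the control diet were 8.15, 7.67 and 7.34 in POR-null liver, against 6.41, 5.54 and 5.53 in wild-type liver. The lowest of 6 POR-null arrays stood 0.93 log2 units above the highest of 6 wild-type arrays, which was wild-type control array 1. The difference was 2.27 ± 0.23 (SE) on the quercetin diet, a fold of 4.83 (limma adjusted p = 0.000253). The control-diet difference was 1.89 ± 0.23, a fold of 3.72 (adjusted p = 0.00185), 2.19 without wild-type control array 1 and 2.08 without POR-null control array 3. It was lowest, at 1.68, without POR-null control array 1. Among 12393 genes the differences over all arrays ranked 9th on the quercetin diet and 6th on the control diet from the top. Cd36 passed on each diet in all 6 fits that left out 1 array of the groups compared.

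The other Cd36 probe sets gave the same direction but not the same size. Probe set 1450883_a_at differed by 2.30 ± 0.25 on the quercetin diet and 2.11 ± 0.25 on the control diet (limma adjusted p = 0.000496 and 0.00164), and passed in all 6 fits without 1 array on each diet. Probe set 1450884_at had a mean of 3.69 over the 12 arrays, low on the scale of the arrays, and differed by 0.40 ± 0.11 on the quercetin diet, which did not pass (adjusted p = 0.069). Its control-diet difference was 0.56 ± 0.11 (adjusted p = 0.028), a call that held in 2 of 6 fits without 1 array. In all 3 probe sets every POR-null array lay above every wild-type array.

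Lpl encodes lipoprotein lipase, which cuts triglyceride in circulating lipoproteins and is little expressed in normal adult liver. Quercetin-diet signals (1415904_at) were 7.68, 7.96 and 7.14 in POR-null liver, against 6.79, 6.73 and 6.72 in wild-type liver. The control-diet arrays read 7.54, 7.00 and 7.27 in POR-null liver, against 6.92, 6.38 and 6.59 in wild-type liver. The groups did not overlap on either diet, although the gap between the genotypes over all arrays was only 0.08. Lpl rose by 0.85 ± 0.19 on the quercetin diet (limma adjusted p = 0.0294), a call that held in 1 of 6 fits with an array left out, with adjusted p up to 0.126. Its control-diet difference of 0.64 ± 0.19 did not pass (adjusted p = 0.117). Without wild-type control array 1 it was 0.78 and passed (adjusted p = 0.0466), and without POR-null control array 1 it was 0.50. Averaged over both diets Lpl rose by 0.74 ± 0.13 (adjusted p = 0.00399). Its second probe set, 1431056_a_at, differed by 0.71 ± 0.15 on the quercetin diet (adjusted p = 0.0219) and by 0.19 ± 0.15 on the control diet (adjusted p = 0.575). The quercetin-diet call of that probe set held in 1 of 6 fits without 1 array (adjusted p up to 0.106).

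Vldlr, the receptor that takes up triglyceride-rich lipoproteins, did not pass in any comparison of the genotypes. Its representative probe set (1434465_x_at) ranged from 4.83 to 5.12 over the 6 POR-null arrays and from 4.75 to 4.96 over the 6 wild-type arrays. The difference over both diets was 0.06 ± 0.07, with a 95% interval from -0.08 to 0.21. The other 3 Vldlr probe sets differed by -0.09 to 0.15 and had means of 3.51 to 3.67 over the 12 arrays, near the lowest signals on the arrays. None of the 4 passed (limma adjusted p = 0.262 to 0.949 over both diets).

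By their representative probe sets, both small binding proteins rose when the diets were averaged. Fabp4 encodes the fatty acid carrier of adipocytes and macrophages. Its quercetin-diet signals (1417023_a_at) were 6.95, 6.42 and 6.47 in POR-null liver, against 5.33, 5.19 and 4.97 in wild-type liver. Control-diet signals were 7.14, 6.45 and 5.60 in POR-null liver, against 4.91, 5.31 and 5.21 in wild-type liver. Array 3 of the POR-null control group was close to the wild-type values, yet no arrays overlapped over the 12. The difference was 1.45 ± 0.28 on the quercetin diet, a fold of 2.73 (limma adjusted p = 0.0141), and it passed in 4 of 6 fits without 1 array. For the control diet it was 1.25 ± 0.28 with an adjusted p of 0.0467, just inside the threshold. Leaving out POR-null control array 3 gave 1.65 (adjusted p = 0.00148), and leaving out any other array of that comparison ended the call (adjusted p = 0.062 to 0.181). The lowest value, 0.88, came without POR-null control array 1. Averaged over diets, Fabp4 rose by 1.35 ± 0.20 (adjusted p = 0.00122) and passed in all 12 fits without 1 array.

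The 4 Fabp4 probe sets did not all pass. Probe set 1451263_a_at differed by 1.50 ± 0.32 on the quercetin diet and by 1.03 ± 0.32 on the control diet (limma adjusted p = 0.0232 and 0.132). Its quercetin-diet call held in 1 of 6 fits without 1 array (adjusted p up to 0.118). Probe sets 1424155_at and 1425809_at differed by -0.05 ± 0.07 and 0.00 ± 0.08 over both diets, with 95% intervals from -0.20 to 0.10 and from -0.17 to 0.18. Their signals covered 0.32 and 0.37 log2 units over the 12 arrays, against 2.23 for the representative one. Why they differ was not tested.

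Fabp5, the epidermal-type fatty acid carrier that macrophages also make, had its clearest difference on the control diet. There its signal (1416021_a_at) was 6.37, 6.86 and 6.94 in POR-null liver, against 5.79, 5.34 and 5.45 in wild-type liver. With quercetin it was 6.26, 6.00 and 5.52 in POR-null liver, against 4.86, 5.54 and 5.68 in wild-type liver. The groups were apart on the control diet and overlapped on the quercetin diet. The control-diet difference was 1.20 ± 0.22, a fold of 2.29 (limma adjusted p = 0.0226), and it passed in 3 of 6 fits without 1 array. It was 1.33 without wild-type control array 1. With quercetin it was 0.57 ± 0.22 and did not pass (adjusted p = 0.215). The difference between those differences was -0.63 ± 0.32 and did not pass either (adjusted p = 0.82), so the diets are not shown to differ. The second probe set, 1416022_at, differed by 0.67 ± 0.20 on the control diet (adjusted p = 0.124) and by 0.28 ± 0.20 on the quercetin diet (adjusted p = 0.516). Averaged over diets, the representative probe set rose by 0.88 ± 0.16 (limma adjusted p = 0.00417). The second differed by 0.47 ± 0.14 and did not pass (adjusted p = 0.057), though it did in 3 of 12 fits without 1 array.

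**Figure D2:**
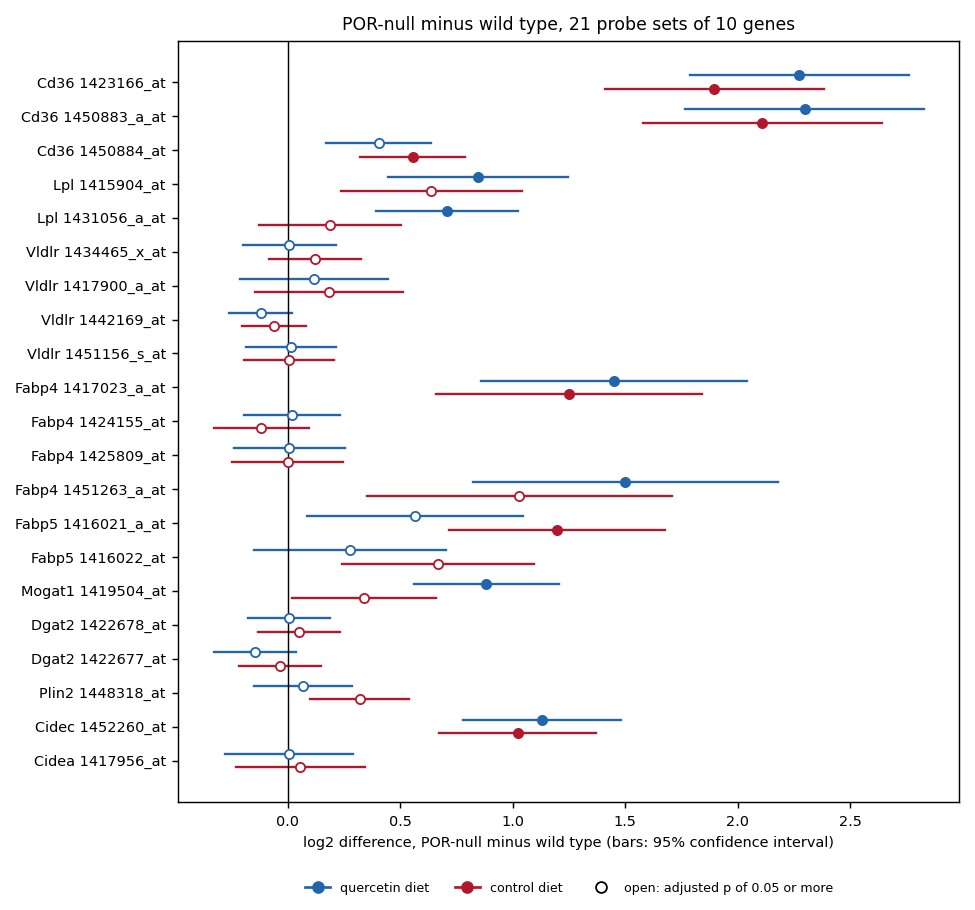
Log2 difference, POR-null minus wild type, of all 21 probe sets on the quercetin diet (blue) and on the control diet (red), with 95% confidence intervals and filled points where the limma adjusted p is under 0.05. The Cd36 probe sets 1423166_at and 1450883_a_at lie farthest right on both diets, at 2.27 and 2.30 on the quercetin diet, and the 4 Vldlr probe sets lie around 0.

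Of the 2 acyltransferases, Mogat1 rose and Dgat2 did not. Mogat1 makes diacylglycerol from monoacylglycerol. Its quercetin-diet signals (1419504_at) were 5.34, 5.54 and 5.17 in POR-null liver, against 4.51, 4.43 and 4.46 in wild-type liver. Signals on the control diet were 5.39, 4.94 and 4.76 in POR-null liver, against 4.46, 4.78 and 4.83 in wild-type liver. The groups stood apart on the quercetin diet, while on the control diet POR-null array 3 lay below 2 of the wild-type arrays. The difference was 0.88 ± 0.15 on the quercetin diet, a fold of 1.84 (limma adjusted p = 0.00834), in all 6 fits without 1 array. It was 0.34 ± 0.15 on the control diet (adjusted p = 0.286). Without 1 array the control-diet value was 0.16 with the first POR-null array left out, 0.47 with the third POR-null array left out and 0.22 with the first wild-type array left out, and it passed in 0 of 6 such fits in limma. The difference between diets, 0.54 ± 0.21, did not pass (adjusted p = 0.803).

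Dgat2 adds the last acyl chain of triglyceride and had high signal in every array. Its representative probe set (1422678_at) ranged from 10.80 to 11.02 over the POR-null arrays and from 10.71 to 10.97 over the wild-type arrays. It differed by 0.03 ± 0.06 over both diets, with a 95% interval from -0.10 to 0.16, so that a change of the size seen for Mogat1 lies outside its interval. Probe set 1422677_at differed by -0.09 ± 0.06 (limma adjusted p = 0.397).

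The droplet coat genes split in the same way. Cidec encodes a protein that joins lipid droplets into larger ones. Its quercetin-diet signals (1452260_at) were 5.58, 5.88 and 5.95 in POR-null liver, against 4.71, 4.61 and 4.70 in wild-type liver. The control-diet arrays read 6.09, 5.61 and 5.28 in POR-null liver, against 4.56, 4.79 and 4.56 in wild-type liver. The genotypes were 0.49 apart at their nearest arrays. Cidec rose by 1.13 ± 0.16 on the quercetin diet, a fold of 2.19 (limma adjusted p = 0.00391), in all 6 fits without 1 array. Its control-diet rise was 1.02 ± 0.16, a fold of 2.03 (adjusted p = 0.0121). That call held in 5 of 6 fits, the exception being without wild-type control array 3 (0.98, adjusted p = 0.0504). Without POR-null control array 3 the control-diet rise was 1.21, and without POR-null control array 1 it was 0.81.

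Plin2, the main coat protein of liver lipid droplets, had the highest signal of the coat genes and did not pass on either diet. Its signal (1448318_at) was 11.61, 11.61 and 11.68 in POR-null liver on the quercetin diet, against 11.76, 11.41 and 11.52 in wild-type liver. Control-diet signals were 11.67, 11.77 and 11.71 in POR-null liver, against 11.59, 11.36 and 11.24 in wild-type liver. The control-diet groups did not overlap, and the quercetin-diet groups did. The difference was 0.07 ± 0.10 on the quercetin diet (limma adjusted p = 0.785) and 0.32 ± 0.10 on the control diet (adjusted p = 0.147). Without wild-type control array 1 the control-diet value was 0.41 and passed (adjusted p = 0.0401). Over both diets it was 0.19 ± 0.07 (adjusted p = 0.122), and 0.24 with an adjusted p of 0.0399 without that array.

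Cidea, a relative of Cidec found mainly in brown fat and also induced in fatty mouse liver, did not pass on either diet or over both. Its signal (1417956_at) ranged from 5.29 to 5.83 over the POR-null arrays and from 5.44 to 5.77 over the wild-type arrays. The difference over both diets was 0.03 ± 0.09, with a 95% interval from -0.17 to 0.23. For Cidec the same interval ran from 0.83 to 1.32, so the 2 intervals do not meet.

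Counted by overlap alone, 5 of the 10 genes had all POR-null arrays above all wild-type arrays on the quercetin diet, where 12.2% of all genes did. On the control diet it was 6 of 10, Plin2 and Lpl included, against 8.25% of all genes. Over all 12 arrays it was 4 of 10 (Cd36, Fabp4, Cidec and Lpl), against 2.16%. The 6 calls averaged over diets each held in all 12 fits without 1 array. Cidec, Mogat1, Vldlr and Cidea had means over the 12 arrays below the median of all values, 5.96, and Fabp4 and Fabp5 just below it. No detection call was used, so how much of such a signal is background is not known.

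The second question was whether 24 h of quercetin moved these genes. No member gene passed in either genotype or in the interaction, and over all 12393 genes 0 passed in each (0.0% called), although 849 genes in POR-null liver, 1074 in wild-type liver and 739 in the interaction had an unadjusted p under 0.05 in limma. By representative probe set, 2 of the 10 genes did in POR-null liver (Fabp5 and Mogat1), 0 in wild-type liver and 1 in the interaction (Mogat1). The shares of all genes were 6.85%, 8.67% and 5.96%. Without wild-type control array 1 limma called 151 probe sets in wild-type liver, and again 0 member genes. The largest difference was that of Fabp5 in POR-null liver, -0.80 ± 0.22 (95% interval -1.28 to -0.32, limma adjusted p = 0.607). Its 3 arrays were at 6.26, 6.00 and 5.52 with quercetin, against 6.37, 6.86 and 6.94 on the control diet. These groups did not overlap, the only such case among the 10 genes in either genotype, where 7.62% of all genes had POR-null quercetin arrays below all POR-null control arrays. Its second probe set gave -0.69 ± 0.20 with overlapping arrays (adjusted p = 0.607). In wild-type liver Fabp5 differed by -0.17 ± 0.22.

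For the representative probe sets of the other 9 genes the quercetin difference lay between -0.13 and 0.33 in POR-null liver. In wild-type liver it lay between -0.22 and 0.17. The second Lpl probe set, 1431056_a_at, differed by 0.43 ± 0.15 in POR-null liver (limma unadjusted p = 0.0117, adjusted p = 0.643). Its interaction was 0.52 ± 0.21 (limma unadjusted p = 0.0263, adjusted p = 0.803). Cd36 differed by 0.23 ± 0.23 in POR-null liver and by -0.15 ± 0.23 in wild-type liver, with 95% intervals from -0.26 to 0.71 and from -0.64 to 0.33. Mogat1 differed by 0.32 ± 0.15 in POR-null liver (unadjusted p = 0.0497, limma adjusted p = 0.714) and by -0.22 ± 0.15 in wild-type liver (adjusted p = 0.704). For Fabp4 in POR-null liver the interval ran from -0.37 to 0.81. Without wild-type control array 1 the Cd36 difference in wild-type liver was 0.14, on the other side of 0. The intervals given for Cd36 and Fabp4 hold 0 and also differences of a good part of a log2 unit. For Mogat1 in POR-null liver the 95% interval ran from 0.0004 to 0.64.

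**Figure D3:**
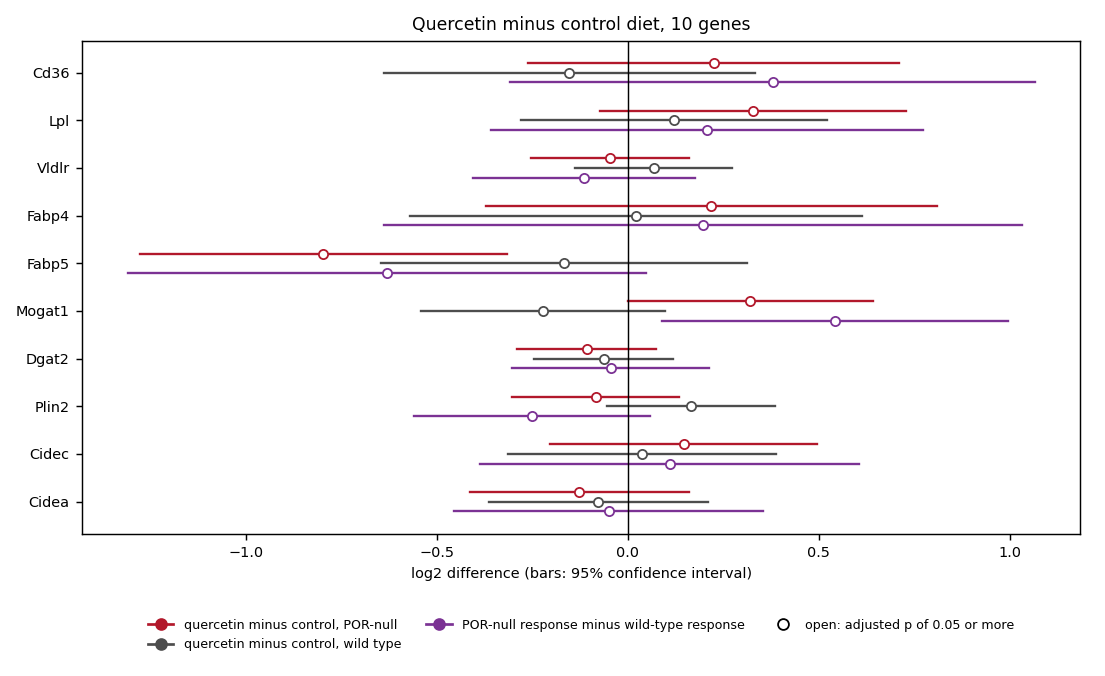
Log2 difference, quercetin minus control diet, of the 10 genes in POR-null liver (red) and in wild-type liver (grey), and the POR-null response minus the wild-type response (purple), with 95% confidence intervals. All points are open, since no limma adjusted p was under 0.05, and Fabp5 in POR-null liver lies farthest from 0 at -0.80.

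The genes around these 10 had a smaller median difference. Of 84 further genes of fatty acid and triglyceride handling, placed in 6 lists by their role, 73 were measured. Averaged over diets 11 of 73 rose in POR-null liver and 0 fell, with a median difference of 0.06, where 5.08% of all genes were called higher. On the quercetin diet 4 of 73 rose (Plin3, Fitm1, Pnpla2 and Pparg), against 1.86% of all genes, and on the control diet 3 (Plin3, Acsl4 and Mogat2), against 0.92%, with 0 falling on either.

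The droplet list held the largest of these differences. Over both diets 4 of 18 measured members were higher (Fitm1, Plin3, Pnpla2 and Cideb), against 5.08% of all genes, and 0 were lower. Fitm1, an endoplasmic reticulum protein that binds triglyceride and promotes droplet formation, was 9.42, 9.75 and 9.51 in POR-null liver on the quercetin diet, against 8.49, 8.60 and 8.51 in wild-type liver. Signals on the control diet were 9.57, 8.95 and 9.35 in POR-null liver, against 8.93, 8.51 and 8.58 in wild-type liver. The genotypes did not overlap, as for 2.16% of all genes in this direction, and Fitm1 rose by 0.82 ± 0.11 over both diets (limma adjusted p = 0.000535). Plin3, a coat protein of young droplets, rose by 0.61 ± 0.10 (adjusted p = 0.00196). Pnpla2, the lipase that starts triglyceride breakdown in the droplet, rose by 0.39 ± 0.09 (adjusted p = 0.0172), and Cideb, a liver relative of Cidec, by 0.24 ± 0.06 (adjusted p = 0.0178). The most abundant members that did not pass were Hsd17b11 (-0.18 ± 0.06) and Ces1d (0.04 ± 0.11).

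In the triglyceride synthesis list 2 of 13 rose, against 5.08% of all genes. They were the diacylglycerol maker Mogat2 (0.49 ± 0.12) and the lipid phosphatase Plpp3 (0.44 ± 0.10). Gpam (0.05 ± 0.06) and Lpin2 (0.13 ± 0.08), which start and continue the glycerol route, did not pass. Lpin2 differed by 0.40 ± 0.11 on the quercetin diet (limma adjusted p = 0.069). There the groups did not overlap, as for 12.2% of all genes in this direction. On the control diet Lpin2 differed by -0.13 ± 0.11 (adjusted p = 0.596). In the uptake and activation list 1 of 12 rose, a count near the 5.08% of all genes, and it was the acyl-CoA synthetase Acsl4 (0.49 ± 0.11, limma adjusted p = 0.0152). Fabp1, the abundant fatty acid carrier of hepatocytes, differed by -0.20 ± 0.08 and did not pass (adjusted p = 0.13). The fatty acid transporter Slc27a2 differed by 0.06 ± 0.06. In the lipoprotein lipolysis and uptake list 0 of 8 passed over both diets or on either diet. Over both diets 2 of 8 had an unadjusted limma p under 0.05, against 23.6% of all genes. Apoc3 differed by 0.00 ± 0.05 and Apoe by -0.05 ± 0.05. In the VLDL assembly list 3 of 6 rose, against 5.08% of all genes. They were P4hb (0.33 ± 0.06), Sar1b (0.30 ± 0.08) and Mttp (0.27 ± 0.07), which load or carry lipid for secretion. Sar1b and Mttp each held in 4 of 12 fits without 1 array. Apob, the core protein of VLDL, differed by -0.18 ± 0.08 (adjusted p = 0.206), and the protein disulfide isomerase Pdia3 by -0.13 ± 0.09 (adjusted p = 0.41). On the quercetin diet Pdia3 was 9.594, 9.554 and 9.706 in POR-null liver, against 9.998, 9.955 and 9.947 in wild-type liver. The difference was -0.35 ± 0.13 and did not pass (limma adjusted p = 0.174). These groups did not overlap, as for 13.5% of all genes in this direction.

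Of 16 measured transcription factors over these genes, 1 passed, again a count near the 5.08% of all genes, and it was Pparg, which encodes PPARγ. Its signal was 6.63, 6.70 and 6.60 in POR-null liver on the quercetin diet, against 5.96, 5.97 and 6.00 in wild-type liver. The control-diet arrays read 6.66, 6.49 and 6.29 in POR-null liver, against 6.04, 6.22 and 5.86 in wild-type liver. The genotypes did not overlap on either diet. In this direction 12.2% of all genes stood apart on the quercetin diet and 8.25% on the control diet. Pparg rose by 0.67 ± 0.11 on the quercetin diet (limma adjusted p = 0.00851) and by 0.55 ± 0.08 over both diets (adjusted p = 0.00123). The control-diet difference of 0.44 ± 0.11 did not pass. Cebpa (-0.14 ± 0.09) and Creb3l3 (0.05 ± 0.06) were the most abundant factors that did not pass.

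**Figure D4:**
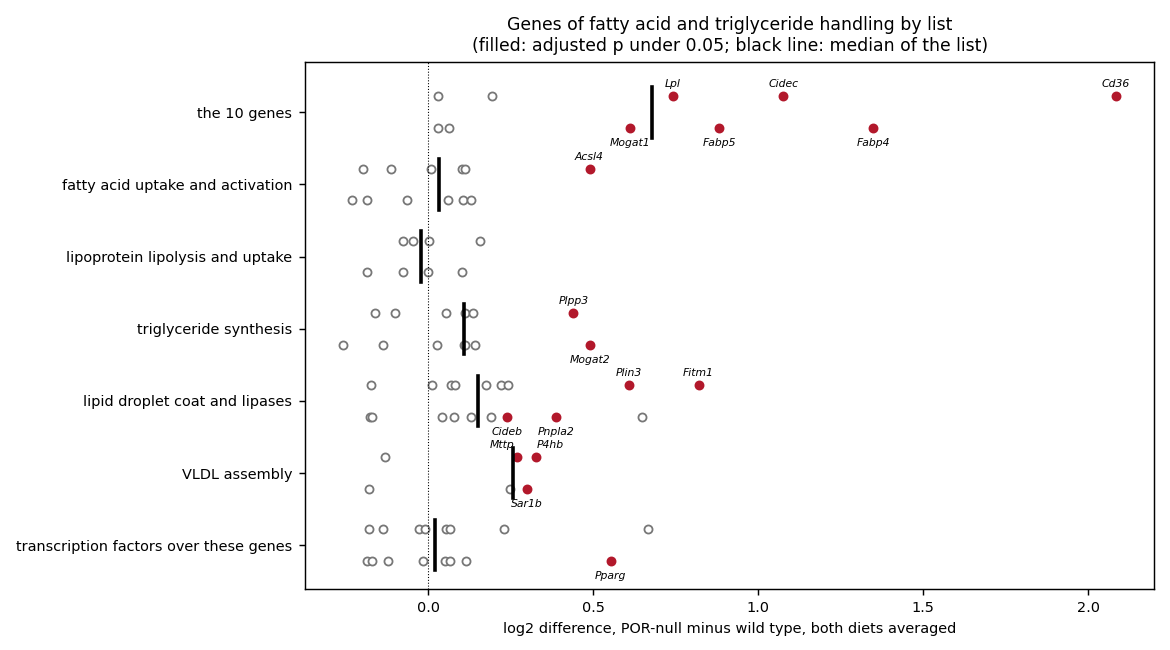
Log2 difference, POR-null minus wild type averaged over both diets, of the 10 genes and of 73 further genes in 6 lists, with 1 point per gene, filled where the limma adjusted p is under 0.05, and a black line at each list's median. The median is 0.68 for the 10 genes and between -0.02 and 0.26 for the lists.

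Among all other genes, the ones whose pattern over the 12 arrays was most like that of Cd36 were Lgals1, Mt1, Cyp7a1 and Anxa5. Likeness was the root mean square difference from Cd36 (1423166_at) after each probe set was set to its own mean. It was 0.30 for both Lgals1 probe sets, 0.37 for Mt1, 0.38 for Cyp7a1 and 0.39 for Anxa5, where the median of all other probe sets was 1.11. Lgals1 encodes galectin-1, Mt1 a metallothionein, Cyp7a1 the first enzyme of the classic bile acid pathway and Anxa5 a phospholipid-binding annexin. Among the members, Fabp4 came nearest to Cd36 (0.52, 16th of 20377 probe sets), followed by its own probe set 1451263_a_at (0.56, 24th) and by Cidec (0.58, 29th). Lpl stood 89th, Mogat1 211th and Fabp5 220th. These ranks describe 1 set of 12 arrays that all share the same split by genotype.

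Several of these genes are also markers of other cells that whole liver could hold. Of 15 macrophage and Kupffer cell markers measured, 4 rose over both diets, Lyz2 by 0.95 ± 0.25, Mpeg1 by 0.90 ± 0.14, Cd5l by 0.70 ± 0.19 and C1qa by 0.39 ± 0.11 (limma adjusted p = 0.0326, 0.00207, 0.0371 and 0.0451), and 0 fell, where 5.08% of all genes were called higher. Of the 15, 10 lay above 0, with a median of 0.37, and the Kupffer cell receptors Marco (-0.43 ± 0.21) and Cd163 (-0.31 ± 0.11) were among those below it, without passing (limma adjusted p = 0.245 and 0.0994). The mean of the list was 7.36 to 7.51 in POR-null liver on the quercetin diet, against 7.02 to 7.69 in wild-type liver, and 7.25 to 7.52 in POR-null liver on the control diet, against 6.82 to 7.20 in wild-type liver. The highest array was wild-type quercetin array 3. There Cd36 (5.81) and Fabp5 (5.68) were the highest of their group and Fabp4 (4.97) and Lpl (6.72) the lowest. For Cd36 (next 5.77) and Lpl (next 6.73) the margin was small. The exocrine pancreas list was also the highest of its group in that array. In wild-type control array 1, where the list was at 7.20 against 6.82 and 6.88 in the other wild-type control arrays, Cd36 (6.41), Fabp5 (5.79) and Lpl (6.92) were the highest of their group and Fabp4 (4.91) the lowest. The part of macrophages in the rise of Cd36, Fabp4, Fabp5 and Lpl was not tested.

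No gene of the adipocyte marker list rose past the threshold. The list leaves out Fabp4 and Cidec, also known from fat tissue, which both rose. Of 9 adipocyte markers measured, 0 rose and 1 fell, where 2.86% of all genes were called lower over both diets. The 1 that fell was Pck1, which is also a hepatocyte gene (-0.36 ± 0.10, limma adjusted p = 0.0343). Adipoq, the adipocyte hormone adiponectin, was 3.88, 3.98 and 3.88 in POR-null liver on the quercetin diet, against 4.18, 4.12 and 4.20 in wild-type liver. Control-diet signals were 3.87, 4.17 and 4.14 in POR-null liver, against 3.94, 4.10 and 4.50 in wild-type liver. These are low signals, and POR-null liver was not the higher group on either diet. The difference over both diets was -0.19 ± 0.09 for Adipoq, 0.02 ± 0.06 for leptin (Lep) and 0.03 ± 0.07 for resistin (Retn). Of the 9 markers, 4 lay above 0 over both diets, with a median of -0.04 and a highest difference of 0.17. On the control diet the highest difference was 0.25. The list mean was 6.73 to 6.82 in POR-null liver on the quercetin diet, against 6.85 to 6.92 in wild-type liver. On the control diet it was 6.81 to 6.95 in POR-null liver, against 6.88 to 6.93 in wild-type liver. That mean includes Cebpa, with group means of 10.54 to 10.71. The part of fat tissue in the values of the 10 genes was not tested.

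In limma 0 of 14 endothelial and 0 of 10 stellate cell and fibroblast markers passed over both diets, with 2 of each at an unadjusted p under 0.05. Likewise 0 of 5 cholangiocyte, 0 of 8 skeletal muscle, 0 of 8 lymphocyte and 0 of 10 exocrine pancreas markers passed, with 1, 1, 1 and 0 at an unadjusted p under 0.05. Of all genes 23.6% had an unadjusted limma p under 0.05 over both diets. Of 11 hepatocyte markers 0 rose and 2 fell, Hnf4a (-0.31 ± 0.07) and Tdo2 (-0.26 ± 0.07), where 2.86% of all genes were called lower. Albumin and the other hepatocyte markers gave the list the highest mean of all, 12.1 to 12.4. The exocrine pancreas list was uneven within groups, with 9.71 in the third POR-null quercetin array and 6.87 and 7.53 in its companions. That array was the lowest of its group for Cd36, Lpl, Fabp5 and Mogat1 and the highest for Cidec, Plin2 and Cidea. The list was also highest in POR-null control array 3, at 8.30 against 6.56 and 7.23 in the other POR-null control arrays. Wild-type groups were uneven too. The list was at 8.48 in wild-type control array 2, against 7.17 and 6.66 in the others of its group. In wild-type quercetin array 3 it was at 8.20, against 6.26 and 6.73. The part of such RNA in the values of these genes was not tested.

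**Figure D5:**
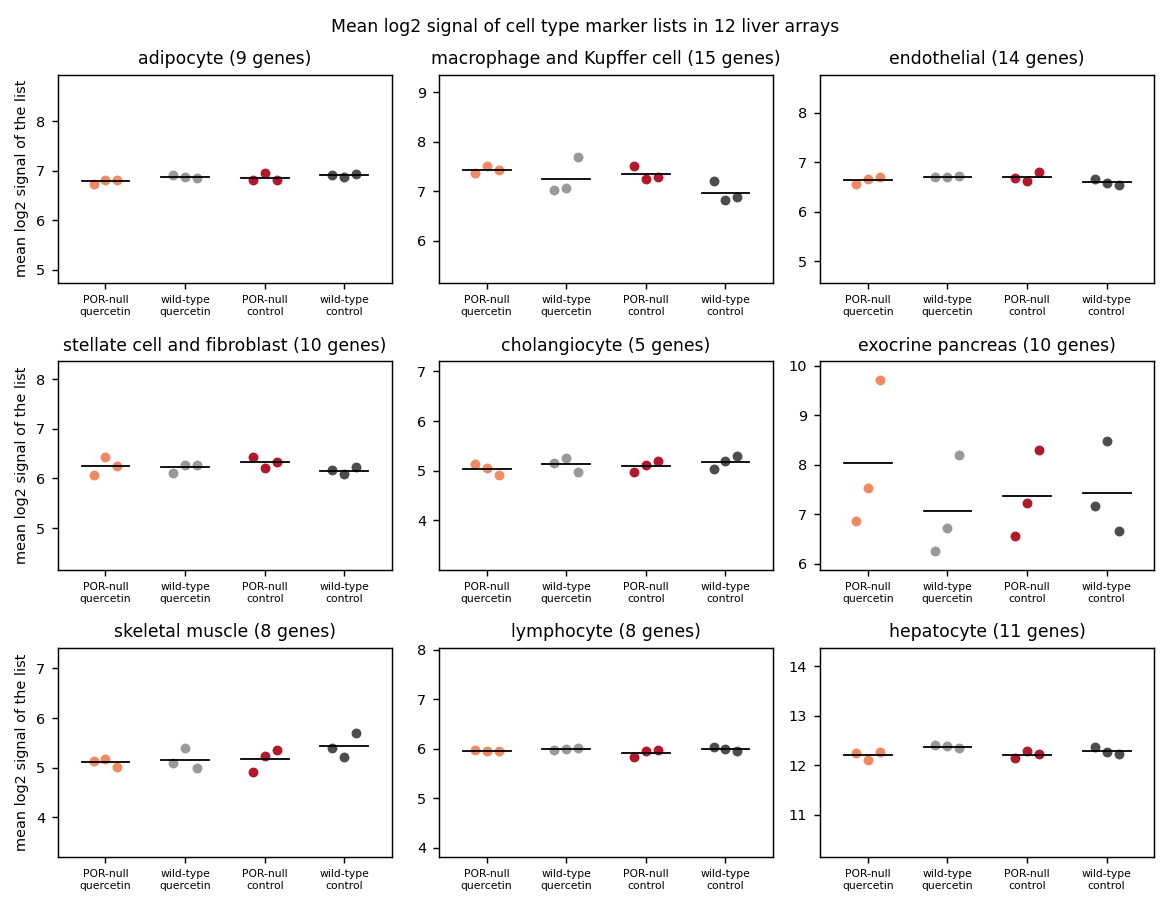
Mean log2 signal of 9 marker lists (1 panel each, all y axes spanning the same number of log2 units) in the 3 arrays of each group, with a line at the group mean. The macrophage list is higher in POR-null than in wild-type liver on the control diet, and the adipocyte list is not higher in POR-null liver. The pancreas list is uneven in every group and reaches 9.71 in 1 POR-null quercetin array.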

How the data were processed

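Total RNA of 12 whole-liver pools was hybridised to 1 Affymetrix 430A array each, per the labels. The authors deposited log2 signals, read as such from their span of 2.57 to 14.2. Of the tools, MAS5 and RMA are listed without a version in the submitters' processing notes, and which of them made the values is not given in the sources used here. No further normalization and no pseudocount was applied, so a planned comparison of pseudocounts did not apply.

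Of 22690 probe sets 64 were array controls and 22626 were tested. The platform annotation gave 1 symbol to 20380, several to 691 and none to 1555. Gene identifiers of 20351 matched RefSeq, which changed 0 symbols. Groups and pool numbers came from the sample titles.

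All tests used limma 3.58.1 (R 4.3.3). A mean was fitted for each group across the 12 arrays, with the variance prior following the intensity, two-sided tests and Benjamini-Hochberg adjustment over all probe sets. There were 6 comparisons: the genotypes on each diet and averaged, quercetin against control diet in each genotype, and the interaction. Intervals are 95% intervals from the same fit. The procedure was tested on simulated data. The number of arrays limits the precision.

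The 10 genes, the gene lists and the rules were chosen with earlier results of these data known. Besides the 10 genes, list genes past the threshold in a genotype comparison are named, with the 2 members of each list that had the highest mean and did not pass, the 5 probe sets nearest to Cd36 in pattern, and marker genes, which were chosen after their values were seen.

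Pools with the same number correlated in their deviations from the group means at r = -0.18 to 0.24 (18 pairs, median 0.045). Pools with different numbers did so at -0.22 to 0.22 (36 pairs, median -0.011). The main fits did not pair pools by number. The ranges overlap and do not settle whether the numbers mark a shared batch. The alternatives were leaving out the lowest 40% of probe sets, quantile normalization, other variance priors, array weights, a block for the pool number, fits restricted to the groups of a comparison, the mean of a gene's probe sets, and leaving out each array. Promoter windows are those of RefSeq, GRCm38.p6.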

Additional observations from a re-analysis of the deposited data

Results flagged for a closer look

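For 3 of the 10 genes, by representative probe set, the quercetin-diet arrays lay on opposite sides of their control-diet mean in the genotypes. All POR-null arrays lay one way and all wild-type arrays the other. Of all 12393 genes 8.45% met the same condition. The difference between the responses, POR-null minus wild type, was 0.54 log2 units for Mogat1 (0.5423), 0.38 for Cd36 (0.379) and -0.25 for Plin2 (-0.2503). In the limma interaction none passed, with adjusted p = 0.803, 0.858 and 0.828, and the opposite directions were not tested in another way. Mogat1 and Cd36 lay above their control mean in POR-null liver and below it in wild-type liver, and Plin2 lay below it in POR-null liver and above it in wild-type liver. The condition held for Mogat1 without any 1 control-diet array. For Cd36 it ended without wild-type control array 1, where the difference between the responses was 0.09 and the wild-type response 0.14, and without POR-null control array 3. Wild-type quercetin array 3 met it narrowly for Cd36, at 5.814 against a control mean of 5.8237. Cd36 probe set 1450883_a_at did not meet it, since POR-null quercetin array 2 (7.713) lay below the control mean of 7.775. In Cd36 probe set 1450884_at the responses had the other signs, -0.11 in POR-null liver and 0.04 in wild-type liver. For Plin2 the condition ended without wild-type control array 2 or 3.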

How the results depend on the processing

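The count of member genes higher in POR-null liver on the control diet was 4. It was 2 when only the groups compared were fitted and 2 with the mean of a gene's probe sets, and 1 to 5 with an array left out: 1 without wild-type control array 3, 2 without array 2 of either control-diet group, and 5 without wild-type control array 1. On the quercetin diet the count was 5, and 3 with the filter on low probe sets, which left out Cidec and Mogat1. It was 3 to 5 with an array left out, the 3 coming without POR-null quercetin array 1 or wild-type quercetin array 2. Averaged over diets 6 genes passed, 4 to 6 under the other settings and 6 to 7 with an array left out. With the pool number as a block the counts were 5 on the quercetin diet, 4 on the control diet and 6 averaged. For quercetin in either genotype and for the interaction, 0 member genes passed under every setting run. Over all probe sets the control-diet count of 262 became 35 without POR-null control array 1 and 756 without wild-type control array 1, and 30 to 337 under the other settings. The quercetin-diet count of 527 became 127 without POR-null quercetin array 1 and at most 389 with another array left out, and 352 to 1052 under the other settings. For wild-type quercetin it was 0 in the main setting and 2 with the block. Of 922 values of the 10 genes under alternatives, 858 kept direction and side of the threshold, 39 changed sign without a call on either side, 22 lost the call, 3 gained it and 0 reversed. Those that lost it were Fabp4, Fabp5, Cidec and Lpl on single diets, and the causes were not tested. Fabp4 on the control diet had an adjusted p of 0.139 as the mean of its 4 probe sets (0.54), and Cidec 0.0819 with only the groups compared.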
